A study of Mus musculus with 12 samples.

Results

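Tmem63a, Tmem63b and Tmem63c, the mouse genes of the TMEM63 family of osmosensitive channels, were described in the frontal cortex of mice with and without the RNA editing enzyme ADAR2. The members were chosen by gene name and comprised 3 of the 15191 genes in the gene table, 58 of the 156805 exon bins in the exon table and 1 of the 143 sites in the editing table. The site is a glutamine-to-arginine (Q/R) position in Tmem63b. Of the 58 bins, 28 belonged to Tmem63b, 29 to Tmem63c and 1 to Tmem63a.

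The study compared 6 libraries from Adar2-/-/Gria2R/R mice with 6 from litter mates of the genotype Adar2+/+ Gria2R/R, all male C57BL/6, with no age in the labels. ADAR2, encoded by Adarb1, turns adenosine into inosine within paired stretches of RNA, and the ribosome and the sequencer take inosine for guanosine. Both groups carried Gria2R, an allele that encodes arginine in the genome at the Q/R site of the AMPA receptor subunit GluA2, so no group had that position in its wild-type form. The deposited tables held one value per group or per comparison and none per library. No SD per group could therefore be computed. Spread between libraries could enter only through the authors' p-values and, for exon bins, their dispersion. For the editing sites the test is not stated, and whether its adjusted p includes that spread is unknown.

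TMEM63 proteins are relatives of the OSCA channels of plants and, more distantly, of the anoctamins and TMC proteins. They conduct cations when the membrane is stretched, for instance by swelling of the cell in a dilute medium. Tmem63a is known for its part in myelination by oligodendrocytes, and variants of human TMEM63B cause an epileptic encephalopathy. Tmem63b mRNA is a known target of recoding, in which a glutamine codon CAG is read as the arginine codon CGG.

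The coding sequence around the recoded codon is shown because it differs between the paralogs. The windows hold 30 bases each, 5′ to 3′ on the coding strand, from the first-numbered GENCODE M21 transcript of each gene (build GRCm38), called its main transcript here. Capitals mark the recoded codon of Tmem63b and the codon aligned with it in the other genes.
Tmem63b: caggcctacgagttcCAGtttggcgcagcc
Tmem63c: caagccacagatttcCAGtttggacgagag
Tmem63a: caggcttttgaatacGAGtttggagccatg

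Tmem63b and Tmem63c both had the glutamine codon CAG at this place, and Tmem63a had the glutamate codon GAG, in which an A-to-G change of the middle base gives a glycine codon. In Tmem63b this was codon 619, in exon 20 of 24, at chr17:45662863-45662968 on the minus strand of GRCm38. The exon is coding and 106 bases long. It holds 2 in-frame CAG codons, 15 bases apart, and the second was taken as the site from general knowledge of this recoding event. The editing table placed the site at chromosome 17, position 45799898 of mm9, and this position was not converted to GRCm38. The aligned codons were number 605 in exon 19 of 23 in Tmem63a (chr1:180970180-180970285) and number 593 in exon 21 of 25 in Tmem63c (chr12:87082199-87082304), both on the plus strand. Those exons are also 106 bases long. Over the 35 aligned codons of the exon, Tmem63b shared 76.2% of bases with Tmem63a and 71.4% with Tmem63c. Over the whole coding sequence the shares were 63.9% and 58.0%, and Tmem63a and Tmem63c shared 54.5%. The aligned codon was thus glutamine in the paralog with the lower share of identical bases and glutamate in the one with the higher share.

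Editing of Tmem63b fell in the knockout, where edited reads were still listed. By the authors' deposited table, 76.1% of reads were edited at the Q/R site in the control and 25.8% in the Adar2 libraries, with an adjusted p of 1.72e-12. Editing fell by 50.4 points, and 33.8% of the control level was left. These are group values with no value per library, and the coverage behind them is unknown. The test that gave the adjusted p is also unknown, so this p cannot be read as a test across libraries or mice. A fall at an adjusted p under 0.05 was the rule among amino acid sites: 19 of the 22 such sites fell (86.4%), against 56 of all 143 sites (39.2%). Tmem63a and Tmem63c had no row in the editing table, and whether the CAG codon of Tmem63c is edited was not analysed here.

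**Figure D1:**
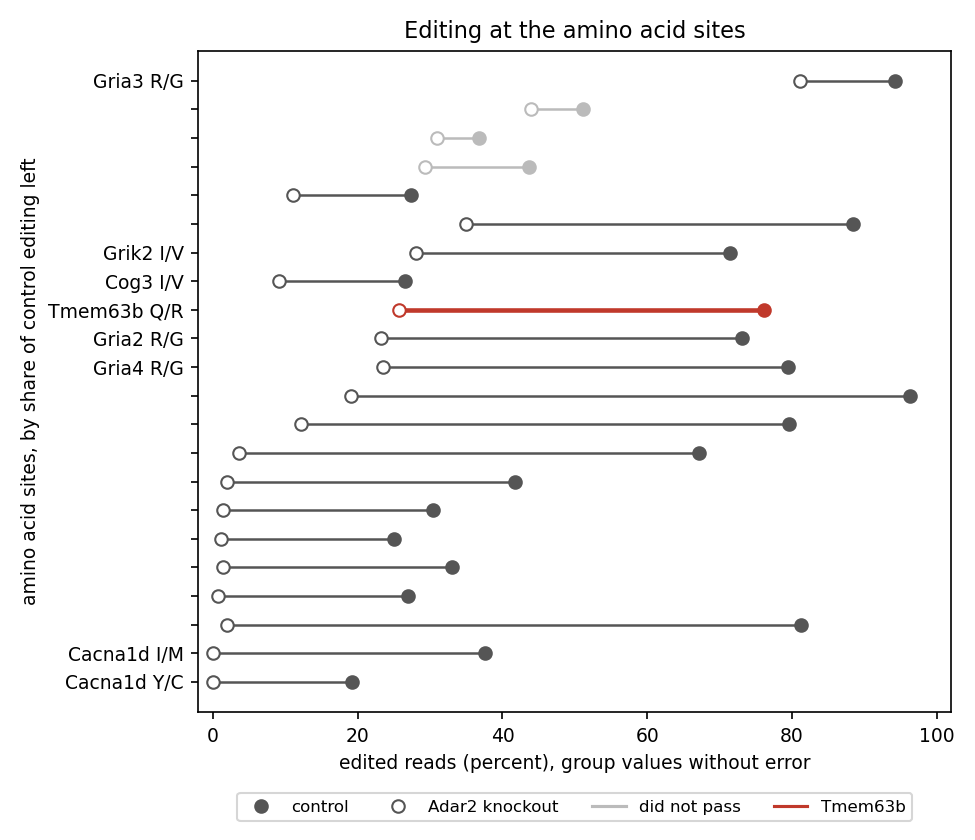
Percent of edited reads (x axis) at each of the 22 amino acid sites (one line per site, ordered by the share of control editing left), with filled points for the control and open points for the knockout, both group values without error. The red line of Tmem63b runs from 76.1% to 25.8% and lies between those of Cog3 and Gria2.

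Tmem63b stood in the upper part of the amino acid sites for both levels. It was the 7th highest of the 22 in the control and the 7th highest in the knockout. Among the 19 that fell, it had the 4th highest knockout level, the 6th largest share of control editing left and the 7th largest fall in points. The other 18 had a median of 54.5% in the control and 6.38% in the knockout, and a median share left of 10.4%. The differences between sites were not tested.

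The 3 sites nearest to Tmem63b in both levels were all in glutamate receptor genes. In the authors' deposited table, the R/G site of Gria2 went from 73.0% to 23.2%, which left 31.8% of the control level. The R/G site of Gria4, another AMPA receptor subunit, was listed at 79.5% and 23.4% in the authors' deposited table, leaving 29.5%. The I/V site of the kainate receptor gene Grik2 went from 71.5% to 28.1% in the authors' deposited table, with 39.3% left. The distances from Tmem63b, taken over both genotypes, were 3.98, 4.08 and 5.19 points. Other glutamate receptor sites lay farther away. The distance was 15.3 points for the Q/R site of Grik2, 24.3 for its Y/C site and 58.3 for the R/G site of Gria3. Nearness to this class of genes was not tested.

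Ordered by the share of control editing left, Tmem63b stood between the I/V site of Cog3, a Golgi tethering subunit, at 34.4% and Gria2 at 31.8%. Cog3 had a much lower control level, with 26.5% and 9.13% in the authors' deposited table. The ends of the order were Gria3, with 86.1% left at its R/G site, and both sites of the calcium channel gene Cacna1d, whose knockout values were listed as 0. Among the 5 Q/R sites of the table, which share their amino acid change and not their gene, the share left ran from 4.70% in the filamin gene Flna to 84.3% in Sfi1. The Sfi1 site did not pass the threshold in the authors' deposited table (adjusted p = 0.594). Tmem63b was the third of these 5 by the share left. A common amino acid change thus went with very different group values.

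The next comparison was of mRNA levels. The gene table heads its conditions A and B without naming a genotype. Adarb1, the targeted gene, had a log2 difference of A over B of -2.21 in the authors' deposited table and was not used to name them, so gene differences carry no genotype. Levels were set against each other as mean normalized read counts per kb of the transcripts above, which are 3306, 3284 and 3327 bases long for Tmem63a, Tmem63b and Tmem63c. Tmem63b was highest at 580.1 per kb, Tmem63c followed at 430.2 and Tmem63a was lowest at 70.0. Tmem63b thus exceeded Tmem63a 8.29-fold and Tmem63c 1.35-fold. Whether Tmem63b and Tmem63c differ beyond the spread between libraries was not tested.

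No member's level passed the threshold. Tmem63b had a mean of 1905 normalized counts, taken over A and B together, and a log2 difference of A over B of 0.09 (p = 0.537, adjusted p = 1) in the authors' deposited table. Tmem63c had a mean of 1431 and a log2 difference of 0.02 (p = 0.993, adjusted p = 1) in the authors' deposited table. Tmem63a had a mean of 231.3 and a log2 difference of -0.10 (p = 0.483, adjusted p = 1) in the authors' deposited table. All 3 values were small as folds: the largest, of Tmem63a, was a 1.07-fold difference. Beside other genes only that of Tmem63c was small. Of all genes, 64.4%, 18.8% and 67.8% had a smaller absolute log2 difference than Tmem63b, Tmem63c and Tmem63a. By the p-values of the authors' deposited table, which has the form of DESeq output, 0 of the 3 genes had an adjusted p under 0.05 and 0 an unadjusted one. Of all 15191 genes, 0.0197% passed the first threshold and 1.86% the second. In bulk cortex, fewer cells of a type and less RNA per cell cannot be told apart.

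**Figure D2:**
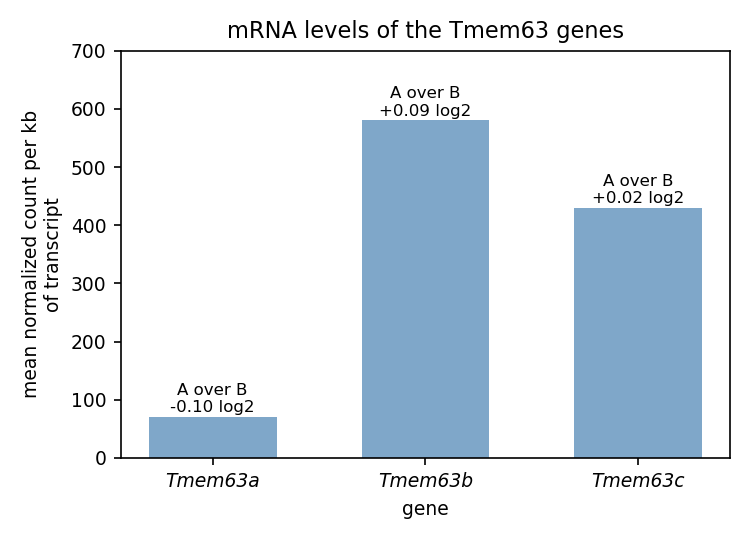
Mean normalized count per kb of transcript over both conditions (y axis, from 0) for each Tmem63 gene, with no error available, and above each bar the log2 difference of condition A over condition B. Tmem63b and Tmem63c stand well above Tmem63a, and no log2 difference exceeds 0.10 in size.

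Exon usage addressed whether the RNA segment that carries the site, or any other segment, was used differently in the knockout. An exon bin is a stretch of exon counted on its own, and its log2 change describes its share of the gene's reads. None of the 58 bins passed by the authors' deposited table, which has the form of DEXSeq output: 0 had an adjusted p under 0.05 and 0 an unadjusted one. Over all 149137 bins with a p, 0.00738% and 1.67% did. The smallest p of any member bin was 0.191, for E018 of Tmem63c in the authors' deposited table.

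The exon table gives bin numbers and no coordinates. Bins were therefore set against exon parts of GENCODE M21, numbered along the chromosome, which may not be the annotation the authors used. By this order, E005 of Tmem63b is exon 20, with the recoded codon. For parts within the main transcript, Spearman's rho between part length and bin count was 0.62 over 26 bins of Tmem63b and 0.91 over 25 bins of Tmem63c. With the numbers moved by 1 or 2 in either direction, rho lay between -0.20 and 0.27 for Tmem63b and between -0.23 and 0.03 for Tmem63c. Over all listed bins, with parts outside the main transcript, rho was 0.33 for the 28 of Tmem63b and 0.87 for the 29 of Tmem63c, and with moved numbers it reached 0.28 and 0.26. These bins share their libraries and gene, and the values are a description. The single bin of Tmem63a, E039, had a mean count of 58.4 and falls in this order on a part of 9 bases, next to one of 935 bases whose number is not among the listed bins, so it was not placed.

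**Figure D3:**
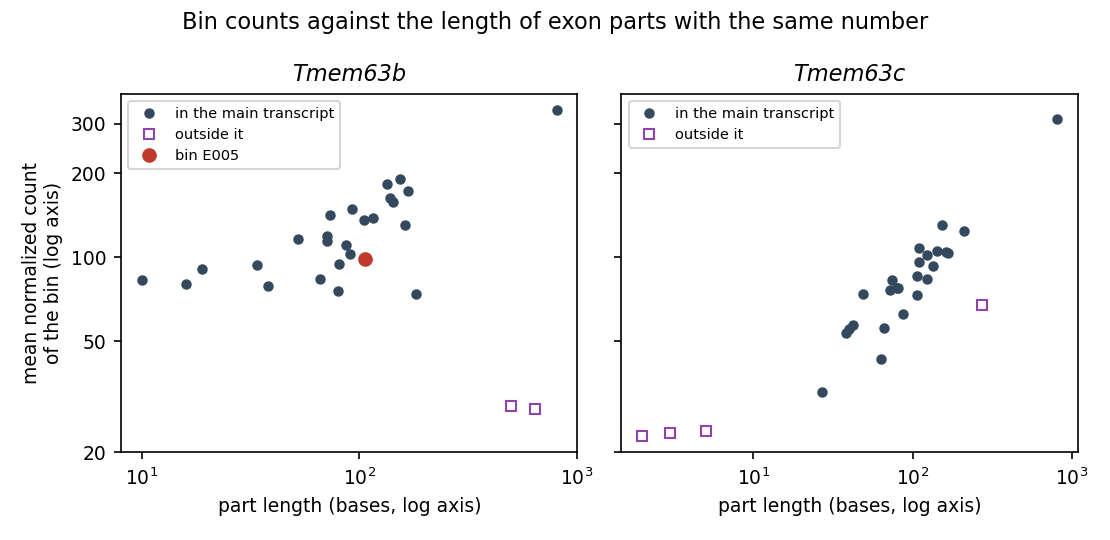
Mean normalized count of each bin (y axis, log scale) against the length in bases of the GENCODE M21 exon part with the same number (x axis, log scale), for Tmem63b and Tmem63c, with filled points for parts of the main transcript and open squares for parts outside it. Counts rise with length among the filled points, and the long open squares of Tmem63b lie far below them.

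E005 had a mean normalized count of 98.0 and a log2 change of knockout over control of 0.14 (p = 0.223, adjusted p = 1), from the authors' deposited table. Read as a two-sided normal test, this p implies an SE of 0.12 and a 95% interval from -0.09 to 0.38. No change in the use of this exon was detected, while the edited share at the site fell by 50.4 points. This value rests on the bin's number: with a number 1 higher or 2 lower it would be -0.22 or -0.12, in the other direction and without passing. Its neighbours E004 (exon 21) and E007 (exon 19) had log2 changes of 0.06 and 0.07 by the authors' deposited table, with p of 0.530 and 0.491. Between exons 19 and 20 lies E006, a part outside the main transcript, with a mean count of 29.3 and a log2 change of -0.22 (p = 0.336) in the authors' deposited table.

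Across the 28 bins of Tmem63b, log2 changes ran from -0.22 to 0.16, with a median of -0.02 and an SD of 0.10 over bins. Of these values 13 were above and 15 below 0. The implied SE had a median of 0.12, so that at the median a 95% interval reaches 0.24 to either side, a 1.18-fold change. The SD over the bins of Tmem63b was below their median SE, a comparison that was not a test. Over all bins 1.67% had an unadjusted p under 0.05, a smaller share than the threshold itself. The implied SEs and intervals may therefore be too wide. The longest run of one sign was E010 to E017, 8 bins with values from -0.12 to -0.01, none of which passed. Neighbouring bins share reads and are not independent.

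**Figure D4:**
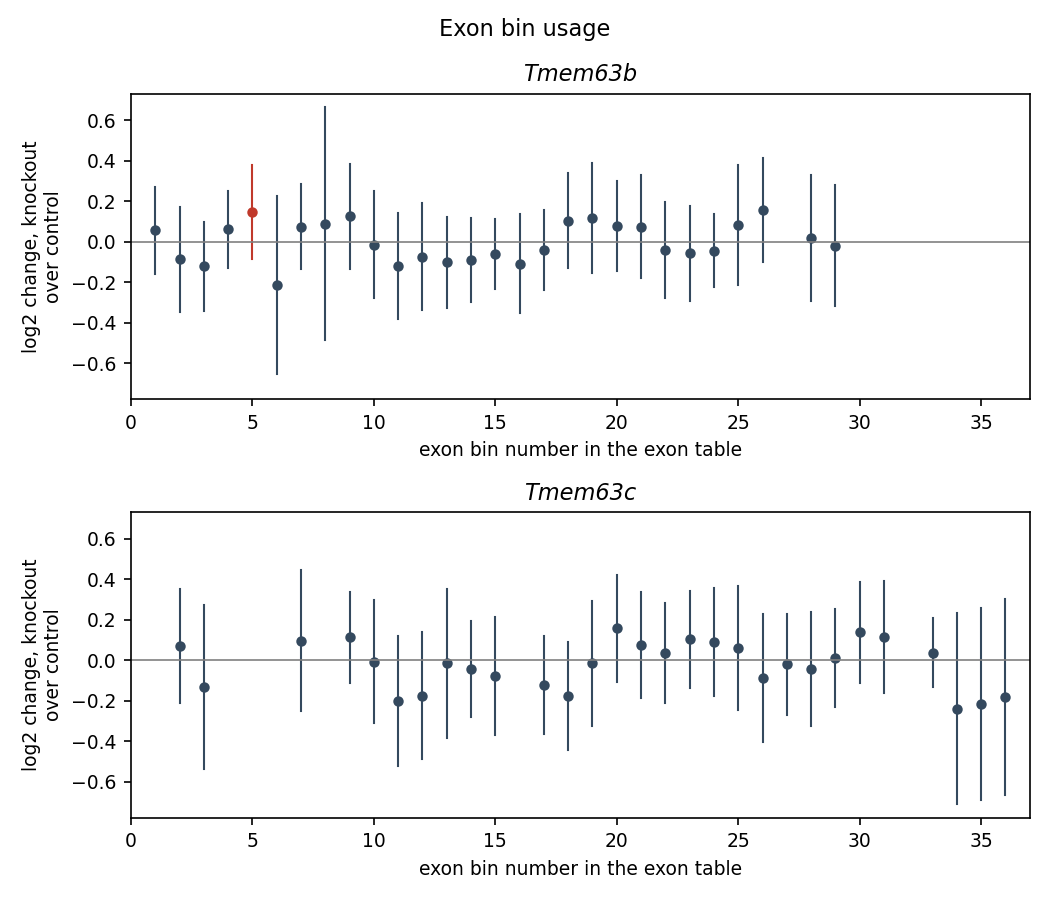
Log2 change of knockout over control (y axis) for each listed bin by its number (x axis), for Tmem63b above and Tmem63c below, with vertical lines for the 95% interval implied by the authors' p. The interval of each bin crosses 0, including that of E005 of Tmem63b in red.

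Tmem63c gave a like picture in its 29 bins, with log2 changes from -0.24 to 0.16 and a median of -0.02. By the same order, E028 is the 106-base exon with the aligned CAG codon. It had a mean count of 72.9 and a log2 change of -0.04 (p = 0.763) in the authors' deposited table, with an implied 95% interval from -0.32 to 0.24. The single bin of Tmem63a had a log2 change of -0.12 (p = 0.502) in the authors' deposited table and an implied interval from -0.47 to 0.23. The median absolute log2 change was 0.09 over the 58 member bins and 0.07 over all bins tested.

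Parts outside the main transcript of Tmem63b had few counts for their length. E006 and E008 fall on parts of 498 and 641 bases outside the main transcript, and had 5.88 and 4.47 normalized counts per 100 bases of part. The 26 bins within the transcript had a median of 126.4 and a lowest value of 40.3 on the same scale. Reads that cross a bin's edge raise this value in short bins.

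Genes with related functions were taken from 3 lists, and the count of members with an adjusted p under 0.05 was 0 in the authors' deposited table, as was that with an unadjusted one, where 0.0197% and 1.86% of all genes passed. Of 38 mechanosensitive and osmosensitive channels 27 were listed, with a median log2 difference of A over B of 0.00, where the median over all genes was 0.01. Tmc7, a TMC protein, had the smallest p in the authors' deposited table (log2 difference -0.18, p = 0.121). The lowest and highest differences were those of Trpv4, a cation channel opened by cell swelling (-0.51, p = 0.123), and Ttyh3 (0.23, p = 0.490) in the authors' deposited table. Trpv4 was near the bottom of the table, with a mean normalized count of 17.6.

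Of 10 anoctamin relatives 8 were listed, with a median of 0.07. They ran from -0.06 for Ano8 to 0.15 for Ano6, a lipid scramblase, which also had the smallest p (0.441) in the authors' deposited table. Of 26 genes of cell volume and osmolyte regulation 24 were listed, with a median of 0.02. Sgk1, a kinase induced by osmotic stress, had the smallest p in the authors' deposited table (log2 difference 0.11, p = 0.154). The range was from -0.29 for Aqp9, a water and glycerol channel, to 0.35 for Wnk2, a kinase of the family that controls chloride cotransport, in the authors' deposited table.

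Markers of cell types of cortex, and of striatal neurons, choroid plexus and blood, were present, and none passed the threshold. Of 59 markers in 10 lists 57 were listed (Drd2 and Folr1 were not analysed here), 0 passed (0.0197% of all genes did) and 1 had an unadjusted p below the same value of 0.05 (1.86% of all genes), Ppp1r1b of striatal neurons (log2 difference 0.30, p = 0.00242) in the authors' deposited table. The list medians ran from -0.02 for endothelium to 0.22 for striatal neurons. They were 0.14 for excitatory and 0.14 for inhibitory neurons, where the median over all genes was 0.01. For oligodendrocytes, the cells in which Tmem63a is best known, 10 of 10 markers were listed, with log2 differences from -0.11 to 0.07 and a median of 0.01. The part of cell composition in the values of the Tmem63 genes was not tested.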

How the data were processed

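RNA from 12 frontal cortices was sequenced after removal of ribosomal RNA, with a stranded total RNA kit, per the labels' protocols. Build mm9 and the programs DESeq, HTSeq, SAMtools 01.19.0, Bowtie2 2.02.0 and TopHat2 2.0.6 stand in the submitters' processing notes without roles. The deposited exon table is named for DEXSeq, with no version. The site caller, its test and the exon annotation are given in no source used here. The deposited gene table holds mean normalized counts (a signal), a ratio or fold of condition B over A with its log2 value, and p-values before and after adjustment. Its 2 columns of means per condition name no genotype and were not used. The deposited exon table holds mean counts (a signal), a log2 value of control over Adar2, p-values and a dispersion score. The deposited editing table holds the percent of edited reads per genotype, an adjusted p-value and another kind of value, the position. Depth per library and per site is unknown.

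The sign of the log2 columns was turned, so gene values are A over B and bin values knockout over control. The implied SE of a bin is its absolute log2 change over the two-sided normal quantile of its p. Codons were aligned through translated sequence (Biopython 1.88, BLOSUM62), and tables were handled in Python 3.11.15 with pandas 2.3.3 and SciPy 1.17.1. Adjustment functions were tested on simulated data. The members and lists were chosen with earlier results of these data known. Named sites and genes followed a rule: all members, the 3 sites nearest to Tmem63b in both percentages, its neighbours and the ends in the order of editing left, and for each list the smallest p and both extremes. Flna, Sfi1, Ppp1r1b and the Q/R and Y/C sites of Grik2 were named after their values were seen. Mean counts minimums, other adjustments and other bin numbers were tried as alternatives. Nothing says beyond the 6 cortices per genotype that libraries came from separate mice, so the authors' p-values may measure technical spread in part.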

Additional observations from a re-analysis of the deposited data

How the results depend on the processing

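The fall at the Tmem63b site passed at a threshold of 0.01 and with a Bonferroni factor over the listed sites. That factor was applied to the authors' adjusted p, because no unadjusted p was at hand, and is not a usual Bonferroni correction. At so small an adjusted p neither step could have changed the outcome, and they add no support. On the log2 odds scale the fall was -3.20, a change of scale that could not alter its direction. The counts of 0 passing Tmem63 genes and 0 passing bins stayed at 0 when adjusted over the listed rows only, at an unadjusted p under 0.05, with mean counts of at least 100 per gene or 50 per bin, and by a Simes p per gene. With smallest unadjusted p of 0.483 over the genes and 0.191 over the bins, these alternatives could not have given another count and add no support. Counts of 0 for the lists of related genes stayed at 0 when adjusted over the listed genes. The smallest unadjusted p in these lists was 0.121 in the authors' deposited table. That step therefore could not have given another count and adds no support. The value of the bin with the edited codon depends on its number: alternatives chosen after seeing the data gave log2 changes of -0.12 for 2 lower and -0.22 for 1 higher, opposite in sign to E005, and none passed. Less the median of the gene's bins, E005 stood at 0.16. Tmem63a had 1 listed bin, which limits what can be said of its exons. No paired analysis was possible because every table gives group values only.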

Other observations

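Bin E027 of Tmem63b had no row between E026 and E028, whose mean counts were 102.3 and 75.7 in the authors' deposited table, and it was not analysed here. In the order of GENCODE M21 parts this number falls on exon 4, of 39 bases. Shorter parts elsewhere in Tmem63b, such as E019 of 10 bases, had a mean count of 83.1 in the authors' deposited table.

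The homologous exons of 163, 106 and 168 bases gave a way to set Tmem63b against Tmem63c at equal length. In the authors' deposited table their mean counts were 130.4, 98.0 and 172.6 in Tmem63b (E007, E005 and E004). They were 104.3, 72.9 and 103.7 in Tmem63c (E027, E028 and E029) in the authors' deposited table. Tmem63b was higher in each of these 3 exons, which are the exon taken to hold the site and those next to it. Not every pair of parts of equal length went this way. The parts of 80 bases had mean counts of 75.7 in Tmem63b (E028) and 77.2 in Tmem63c (E010) in the authors' deposited table. The remaining pairs of equal length are not given here.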
